A study of Mus musculus with 4 samples.

Results

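The 10 genes described here belong to hepatic fatty acid synthesis and its control, and were followed in single nuclei of mouse liver: Fasn, Acaca, Acly, Scd1, Srebf1, Thrsp, Mlxipl, Elovl6, Angptl8 and Pnpla3. They were chosen by name as the core enzymes of the pathway, the transcription factors that drive it and genes known to be switched on with it, and all 10 were found among the 32285 genes of the deposited matrices. The study used liver from male wild-type mice of the inbred strain C57BL6/J, in 2 libraries from mice aged 2 months (young) and 2 libraries from mice aged 30 months (aged). Nuclei came from frozen tissue, and RNA was counted as UMIs (unique molecular identifiers), each of which marks 1 captured RNA molecule. The labels call the libraries of a group replicates without naming the animals, so the p-values measure only the spread between these libraries, which may be technical. The labels give neither the hour of the day nor the feeding state at which the livers were taken.

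The liver turns surplus carbohydrate into fatty acids by a pathway called de novo lipogenesis. Citrate leaves the mitochondria and is cleaved to acetyl-CoA by Acly, carboxylated to malonyl-CoA by Acaca and assembled into palmitate by Fasn. Elovl6 then lengthens palmitate and Scd1 introduces a double bond. Insulin drives these genes through the transcription factor SREBP-1c, encoded by Srebf1, and sugar drives them through ChREBP, encoded by Mlxipl. Thrsp encodes a small protein that follows lipogenic gene activity, Angptl8 a secreted protein that restrains lipoprotein lipase after a meal, and Pnpla3 a protein of the lipid droplet surface. Hepatocytes differ along the axis from the portal vein, where blood enters the lobule, to the central vein, where it leaves.

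In GENCODE vM21, an annotation of the build mm10 used for counting, 4 of the genes lie on chromosome 11: Fasn at chr11:120805846-120824547 (minus strand), Acaca at chr11:84129672-84401651 (plus), Acly at chr11:100476353-100528000 (minus) and Srebf1 at chr11:60199089-60222581 (minus). Scd1 lies at chr19:44394455-44407879 (minus), Thrsp at chr7:97412938-97417730 (minus), Mlxipl at chr5:135089890-135138382 (plus), Elovl6 at chr3:129532355-129638495 (plus), Angptl8 at chr9:21835510-21837347 (plus) and Pnpla3 at chr15:84167837-84187236 (plus). Angptl8 lies wholly inside Dock6, a gene on the opposite strand. How strand was used in counting is not given in the sources used here, so UMIs of Angptl8 and Dock6 could be mixed. Dock6 itself lay at 25.5 and 37.2 CPM (counts per 1000000) in young mice and 25.8 and 21.0 CPM in the aged hepatocyte-like nuclei.

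The 250 bases before the annotated start are shown for 2 enzymes, Fasn and Acly, and for the factor Mlxipl, because the values of the enzymes and the factor lay in opposite directions along the lobule, the factor without passing the test. The sequences are those of RefSeq on GRCm38.p6, written 5′ to 3′ on the gene's own strand, and capitals mark matches to the motifs searched.
Fasn, chr11:120824548-120824797, minus strand: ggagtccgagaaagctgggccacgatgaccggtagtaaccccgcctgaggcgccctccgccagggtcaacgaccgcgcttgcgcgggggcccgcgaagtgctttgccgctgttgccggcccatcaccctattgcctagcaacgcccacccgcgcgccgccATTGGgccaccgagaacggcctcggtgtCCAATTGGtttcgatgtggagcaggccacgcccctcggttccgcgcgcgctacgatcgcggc
Acly, chr11:100528001-100528250, minus strand: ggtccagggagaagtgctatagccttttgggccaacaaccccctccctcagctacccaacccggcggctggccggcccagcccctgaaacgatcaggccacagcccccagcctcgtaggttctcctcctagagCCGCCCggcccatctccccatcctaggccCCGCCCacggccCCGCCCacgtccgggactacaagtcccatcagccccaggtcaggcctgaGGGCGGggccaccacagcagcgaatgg
Mlxipl, chr5:135089640-135089889, plus strand: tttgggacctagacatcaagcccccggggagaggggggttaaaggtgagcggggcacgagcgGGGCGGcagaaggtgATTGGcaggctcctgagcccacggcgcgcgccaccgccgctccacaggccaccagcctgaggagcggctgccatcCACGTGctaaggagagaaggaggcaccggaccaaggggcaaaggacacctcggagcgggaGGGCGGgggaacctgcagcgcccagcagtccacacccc
The Fasn stretch held the NF-Y box CCAAT at 3 places on either strand, 2 of which overlap, starting 90, 62 and 59 bases before the start. The Acly stretch held the GC box GGGCGG at 4 places. The Mlxipl stretch held the E-box CACGTG once, CCAAT once and GGGCGG at 2 places. Of the 32851 promoters of this length in the RefSeq table, 33.8% held CCAAT, 32.7% held GGGCGG and 6.02% held CACGTG on either strand. A promoter was in that table for 9 of the 10 genes, all but Scd1. Over all starts listed for these 9 genes, CCAAT was found in 5 genes, GGGCGG in 4 and CACGTG in 1 (Mlxipl). The only stretch listed for Acaca, chr11:84195188-84195437, lies inside the gene, so the bases before its GENCODE start were not searched. The sterol regulatory element written as TCACNCCAC was found in 1 gene, at the other listed start of Mlxipl, inside the gene, against 1.05% of all promoters. The direct-repeat LXR element, searched by its consensus letters, was found in none of the 9, against 0.0152% of all promoters.

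The libraries differed in depth. Young replicates 1 and 2 and aged replicates 1 and 2 gave 1935, 12219, 7216 and 11892 nuclei after filtering, of which 1346, 8725, 5481 and 8186 were hepatocyte-like, with medians of 3581, 924, 2121 and 2969 UMIs. Clusters were called hepatocyte-like where no other class was marked and the hepatocyte markers had a mean log2 fold of at least -1. These markers were Alb, Apob, Cps1, Mat1a, Abcb11, F2 and Serpina1c. Their mean log2 fold against all other nuclei ran from -0.9 to 0.714 in these clusters. The other classes held free hepatocyte RNA too, as given with their values. Of the 13 hepatocyte-like clusters, 12 drew at least 80% of their nuclei from 1 library. Most hepatocyte-like nuclei of young replicate 1 lay in 1 cluster (1258 nuclei), those of young replicate 2 in 2 clusters (4203 and 3633), those of aged replicate 1 in 3 (2357, 1600 and 1342) and those of aged replicate 2 in 4 (3129, 1602, 1368 and 1297). The age comparisons thus set nuclei of different clusters of the class side by side, while zones were compared within libraries. Mitochondrial transcripts led 2 of these clusters, that of 2357 nuclei in aged replicate 1 and a further one with 557 nuclei of aged replicate 2. The libraries shared between 8 and 67 cell barcodes pairwise. Young replicate 1 stood apart in genes of the fasted liver, with Igfbp1 at 157 CPM against 2.24 CPM in young replicate 2 and 6.03 and 2.62 CPM in aged mice, and G6pc, the last enzyme of glucose release, at 1092 CPM against 192, 85.7 and 53.3 CPM.

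To place the genes along the lobule, the hepatocyte-like nuclei of each library were ordered by 12 pericentral and 12 periportal landmark genes, none of them a gene described here, and divided into 3 parts with equal numbers of nuclei, of which the outer 2 were compared. Of the 10 genes, 8 were higher in the periportal than in the pericentral part at an adjusted p under 0.05 (edgeR quasi-likelihood test on 8 sums with the library as a block). Over all 12581 genes tested, 10.7% were called higher in the periportal part and 10.8% higher in the pericentral part, and 20% were higher in the periportal part in 4 of 4 libraries. The median log2 fold change, pericentral over periportal, was -0.73 for the 10 genes and -0.01 for all genes. The 8 genes were the enzymes Acly, Acaca, Fasn, Scd1 and Elovl6, the factor Srebf1, and Thrsp and Pnpla3. Angptl8 did not pass, and Mlxipl lay in the opposite direction without passing.

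Acly, which supplies the acetyl-CoA, had periportal levels of 201 and 279 CPM in young mice and 223 and 105 CPM in aged mice, and pericentral levels of 42.5 and 96.3 CPM and 41.2 and 27.9 CPM. The lowest periportal value lay above the highest pericentral one. The log2 fold change was -2.01 ± 0.13 (SE, edgeR adjusted p = 6.44e-06), and the periportal level was 2.90 to 5.41 times the pericentral level within a library.

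Acaca, the carboxylase that makes malonyl-CoA, had periportal levels of 1286, 1065, 986 and 958 CPM in young replicates 1 and 2 and aged replicates 1 and 2, and pericentral levels of 726, 579, 379 and 393 CPM. All 4 periportal values lay above all 4 pericentral ones. The log2 fold change was -1.09 ± 0.10 (SE, edgeR adjusted p = 5.84e-05), and a library's periportal level was 1.77 to 2.60 times its pericentral level.

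Fasn, the synthase itself, had periportal levels of 50.8, 188, 55.8 and 38.1 CPM against pericentral levels of 19.1, 124, 20.3 and 17.8 CPM in the same order of libraries. The gap between young replicate 2 and the other libraries was larger than the gap between zones, so the 2 zones overlapped across libraries and separated within each. The log2 fold change was -1.05 ± 0.14 (SE, edgeR adjusted p = 0.000405).

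The modifying enzymes had log2 zone changes nearer to 0, a difference that was not tested. Elovl6, the elongase, lay at 1672, 649, 574 and 241 CPM in the periportal and 1322, 451, 443 and 199 CPM in the pericentral parts (log2 fold change -0.38 ± 0.07 SE, edgeR adjusted p = 0.00341). The periportal value was the higher one in every library, by 1.21 to 1.44 times. Scd1, the desaturase, lay at 67.3, 867, 214 and 237 CPM against 35.8, 683, 108 and 139 CPM (log2 change -0.72 ± 0.11 SE, edgeR adjusted p = 0.000938).

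The Scd1 difference moved with the share of mitochondrial UMIs allowed. With at most 1% mitochondrial UMIs its log2 fold change was -0.23 (edgeR adjusted p = 0.0605), and without the 2 mitochondria-rich clusters it was -0.35 (edgeR adjusted p = 0.0452). The median mitochondrial share of the periportal parts was 0.347%, 0.664%, 0.724% and 0.390% and that of the pericentral parts 0.222%, 0.506%, 0.613% and 0.309%. It was higher on the periportal side in all 4 libraries, and its part in the zone differences of the other genes was tested only by these same 2 settings. Under them 6 and 7 of the 10 genes were called. The share of all genes called under these 2 settings is not given here, so the counts cannot be set against it. Pnpla3 was not tested in either, since it did not pass the filter on low counts there.

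Srebf1 and Mlxipl, the genes of the insulin-driven and the sugar-driven factor, differed in direction. Srebf1 lay at 54.1, 272, 54.8 and 84.9 CPM in the periportal and 43.0, 196, 32.6 and 42.3 CPM in the pericentral parts (log2 fold change -0.68 ± 0.11 SE, edgeR adjusted p = 0.00147). Mlxipl lay at 2179, 1506, 951 and 870 CPM in the periportal and 2732, 1741, 967 and 1158 CPM in the pericentral parts. The pericentral value of Mlxipl was the higher one in 4 of 4 libraries, which was the case for 18.5% of all genes tested, while the log2 fold change of 0.24 ± 0.08 (SE) missed the threshold (edgeR adjusted p = 0.0538). Without aged replicate 1, in which the 2 parts differed least, it was 0.33 (edgeR adjusted p = 0.0159). Under the 11 other settings it ranged from 0.19 to 0.28 and was called in 7, so the call depends on the setting.

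Thrsp, the small protein gene that follows lipogenesis, lay at 288, 1160, 370 and 107 CPM in the periportal and 159, 873, 196 and 61.9 CPM in the pericentral parts (log2 fold change -0.73 ± 0.09 SE, edgeR adjusted p = 0.000356). Angptl8 lay at 23.2, 203, 42.6 and 31.0 CPM against 12.4, 184, 20.7 and 30.4 CPM. Its zone ratios ranged from 1.02 in aged replicate 2 to 2.06 in aged replicate 1, and its log2 fold change of -0.38 ± 0.16 (SE) was not called (edgeR adjusted p = 0.119).

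Pnpla3, the lipid droplet gene, rested on few UMIs, 1 and 52 in young replicates 1 and 2 and 289 and 40 in aged replicates 1 and 2. Young replicate 1 had 0 UMIs in both outer parts. The other libraries had periportal levels of 7.98, 32.3 and 2.19 CPM against pericentral levels of 2.44, 3.60 and 0.442 CPM. The log2 fold change was -2.66 ± 0.31 (SE, edgeR adjusted p = 0.000359) with 3 parts and -1.72 with 2 parts of 50% of the nuclei (edgeR adjusted p = 0.000360). Most of its UMIs came from aged replicate 1, and without that library the gene did not pass the filter on low counts and was not tested.

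**Figure D1:**
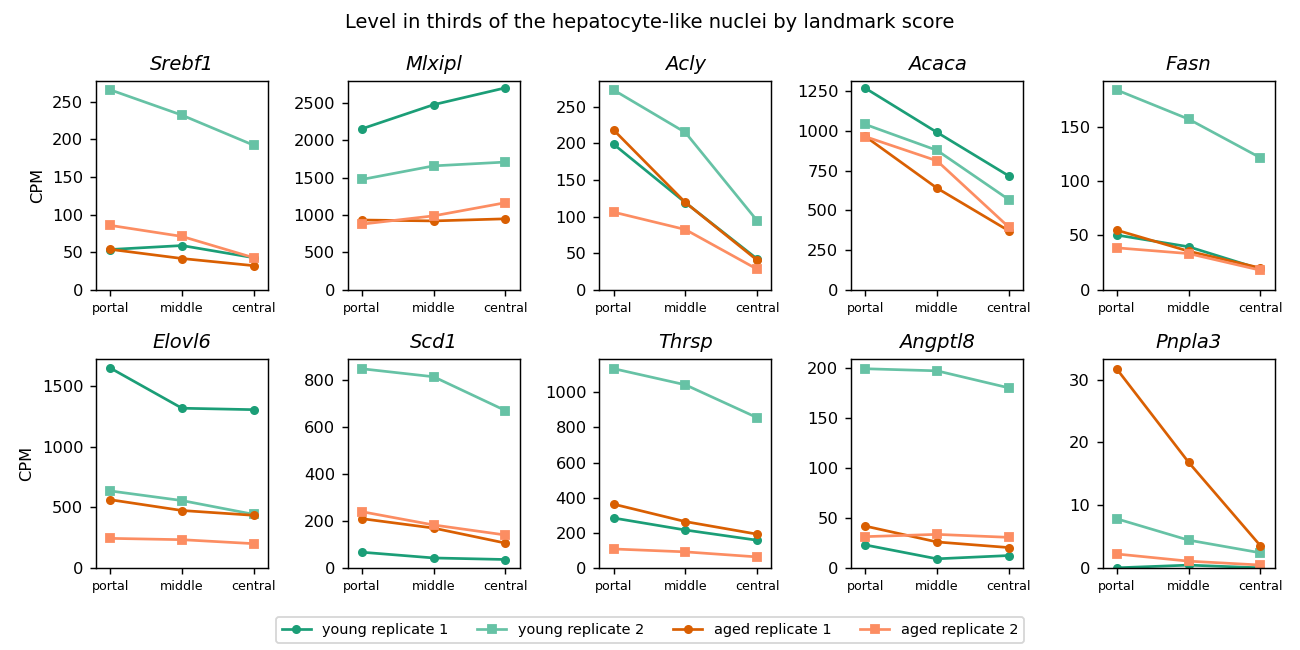
CPM of each gene (vertical axis, scaled per gene and starting at 0) in the periportal, middle and pericentral part of the hepatocyte-like nuclei of each library (horizontal axis), with 1 line per library. Of the 40 lines 32 fall from the portal to the central side, 3 rise, all of them Mlxipl, and 5 do neither.

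The middle part lay between the outer parts for most genes. Of 40 profiles, 1 for each gene and library, 32 fell at both steps from periportal to pericentral, 3 rose at both steps and 5 did neither. All 4 profiles fell for Fasn, Acaca, Acly, Scd1, Thrsp and Elovl6. The 3 rising profiles were those of Mlxipl in young replicates 1 and 2 and aged replicate 2. The sharpness of the ordering itself differed between libraries: the median landmark was 17.6 times higher in its own part in young replicate 2 on the pericentral side, against 31.3 to 36.7 times in the other libraries, and 3.91 against 7.27 to 8.61 times on the periportal side. Young replicate 2 also had the smallest periportal to pericentral ratio of Fasn (1.52), Acly (2.90), Scd1 (1.27) and Thrsp (1.33). The smallest ratio lay in young replicate 1 for Acaca (1.77) and Srebf1 (1.26) and in aged replicate 2 for Elovl6 (1.21) and Angptl8 (1.02), and Elovl6 had its largest ratio in young replicate 2 (1.44). The part of the ordering in these ratios was not tested.

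The zone difference was then compared between ages with a zone by age term. None of the 10 genes passed (edgeR, 10 of 12581 genes or 0.0795% called), and 2 had an unadjusted p under 0.05, against 6.14% of all genes. These were Acaca (term -0.48 ± 0.13 SE, edgeR unadjusted p = 0.00537, adjusted p = 0.541) and Srebf1 (-0.47 ± 0.16 SE, unadjusted p = 0.0154, adjusted p = 0.692). The Acaca ratios of periportal to pericentral level were 1.77 and 1.84 in young mice and 2.60 and 2.44 in the aged libraries. The Srebf1 ratios were 1.26 and 1.39 against 1.68 and 2.01. Both genes were chosen by their p for this term, so nothing further is read from their ratios.

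Other genes of the pathway showed mixed directions along the lobule. Of 21 tested enzymes of fatty acid synthesis, elongation, desaturation, triglyceride assembly and NADPH supply, 7 were called higher periportal and 3 higher pericentral (median log2 fold change -0.16). Over all genes tested the shares were 10.7% and 10.8%. The 3 with the smallest p were Lpin1, a phosphatidate phosphatase (1370 against 792 CPM as means over libraries, log2 fold change -0.85 ± 0.09 SE), its relative Lpin2 (776 against 1181 CPM, 0.60 ± 0.07) and Elovl5, an elongase of polyunsaturated fatty acids (69.9 against 44.3 CPM, -0.65 ± 0.10). Their edgeR adjusted p-values were 0.000114, 0.000213 and 0.00162. The paralogs Lpin1 and Lpin2 thus lay in opposite directions in 4 of 4 libraries each.

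Of 22 regulators of the pathway, 5 were called higher periportal and 3 higher pericentral (median -0.06), against 10.7% and 10.8% of all genes. Pparg, a nuclear receptor of lipid storage, had pericentral levels of 104, 83.5, 177 and 188 CPM against periportal levels of 6.07, 17.4, 19.7 and 5.51 CPM. Every pericentral value of Pparg lay above every periportal one (log2 fold change 3.66 ± 0.35 SE, edgeR adjusted p = 6.73e-05). Rxra, the partner of LXR and PPAR receptors, was higher pericentral (455 against 289 CPM, 0.65 ± 0.07, adjusted p = 0.000146). Ppargc1b, a coactivator of SREBP, was higher periportal (198 against 107 CPM, -0.86 ± 0.10, adjusted p = 0.000184).

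Genes of sugar entry lay on the periportal side. Of 9 tested, 6 were called higher periportal and 0 higher pericentral (edgeR, median -0.36), against 10.7% and 10.8% of all genes. At an unadjusted p under 0.05, 1 was higher pericentral. Khk and Tkfc, kinases of fructose breakdown, lay at 161 and 242 CPM in the periportal and 84.2 and 121 CPM in the pericentral parts as means over libraries. Their log2 fold changes were -1.02 ± 0.09 and -0.99 ± 0.10 (SE), with edgeR adjusted p-values of 3.63e-05 and 7.06e-05. Both were higher periportal in 4 of 4 libraries.

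Of 8 tested partners and relatives of Angptl8 and Pnpla3, 1 was called in each direction. Of all genes, 10.7% were called higher periportal and 10.8% higher pericentral. Hsd17b13, a lipid droplet enzyme, lay at 324 against 51.0 CPM (log2 change -2.67 ± 0.20 SE, edgeR adjusted p = 1.44e-05), the same direction as Pnpla3. The call on the pericentral side was Lpl, the lipase that Angptl8 restrains, named after its values were seen (2.57 against 5.80 CPM as means, log2 change 1.41 ± 0.44 SE, edgeR adjusted p = 0.0456). Its pericentral value was the higher one in 3 libraries and the lower one in aged replicate 1 (2.05 against 1.44 CPM). Lpl rested on few UMIs, 25 to 98 per library with all zone parts together. Angptl4 and Cidec, which follow in order of p among those with at least 10 CPM, were not called (0.17 ± 0.09 and 0.16 ± 0.08, adjusted p = 0.218 and 0.220). Of 5 tested targets of LXR, 1 was called higher pericentral, the sterol transporter gene Abcg8 (204 against 250 CPM, 0.31 ± 0.07, adjusted p = 0.0128), and 0 higher periportal (0 also at an unadjusted p under 0.05). Abcg5 and Lpcat3 were not called (0.18 ± 0.07 and 0.11 ± 0.10, adjusted p = 0.118 and 0.524).

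**Figure D2:**
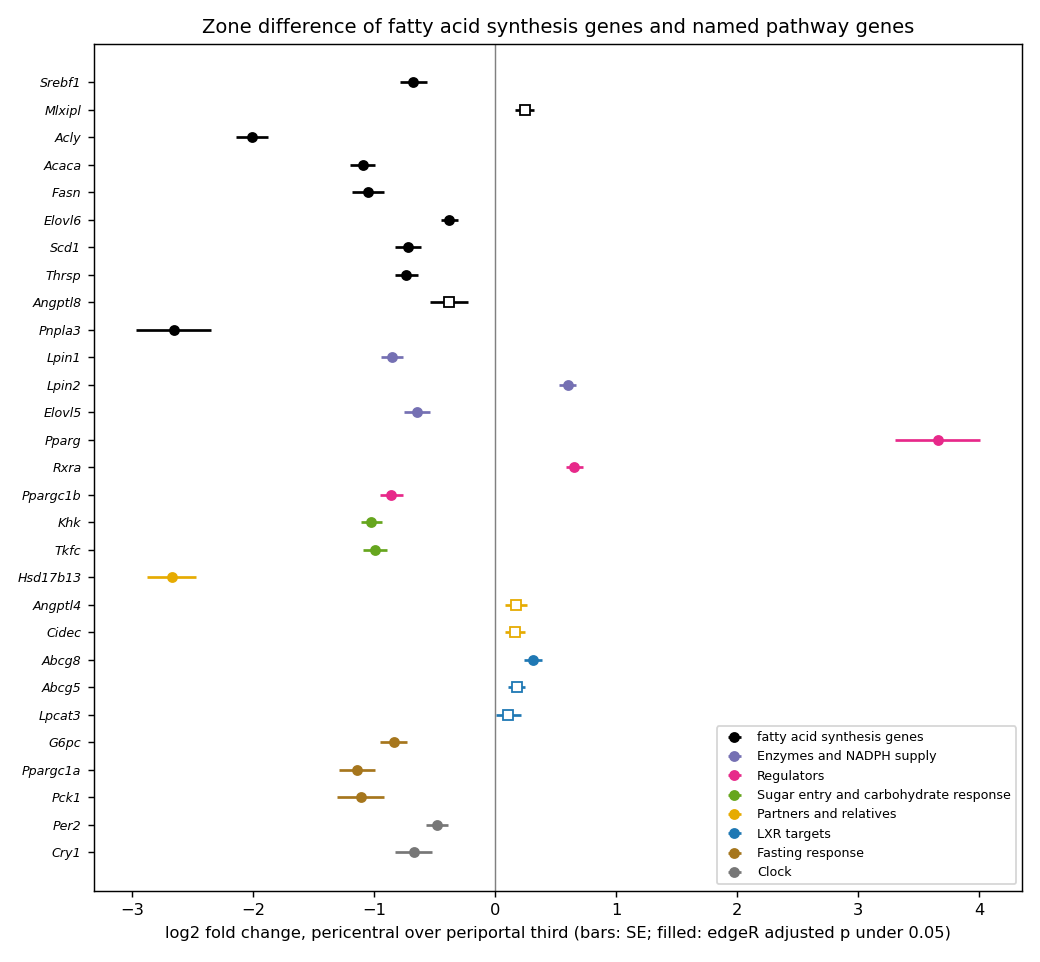
Log2 fold change of the pericentral over the periportal part (horizontal axis, with its SE) for the 10 genes and for named genes of 7 lists (vertical axis). Filled points passed the threshold, and Acly at -2.01 and Pparg at 3.66 mark the contrast between the synthesis enzymes and this receptor.

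To compare the ages, UMIs of all hepatocyte-like nuclei were summed per library. None of the 10 genes was called (edgeR quasi-likelihood test, 5 of 15338 genes or 0.0326% called, 0.0261% higher and 0.00652% lower in the aged libraries), 2 had an unadjusted p under 0.05 against 18.2% of all genes, and DESeq2 called none of the 10 as well, with 5.14% of all genes called. Of the 10, 9 had a lower mean in the aged libraries, with a median log2 fold change of -1.33 against -0.02 over all genes. Both aged libraries lay below both young ones for 3 genes, Elovl6, Mlxipl and Acaca, where 25.3% of all genes had this order and 51.1% had no overlap in either direction. The libraries of the young group differed from one another by more than the ages did for 7 of the 10 genes.

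Fasn lay at 36.3 and 154 CPM in young replicates 1 and 2 and at 36.6 and 29.3 CPM in aged replicates 1 and 2. Only young replicate 2 was high, and young replicate 1 lay within the aged range. The log2 fold change of -1.53 ± 0.61 (SE) was not called (edgeR adjusted p = 0.251). Acly lay at 119 and 193 CPM against 127 and 70.7 CPM (-0.66 ± 0.41, adjusted p = 0.431), again highest in young replicate 2. Acaca lay at 1000.3 and 827 CPM against 658 and 711 CPM, without overlap between the ages, and was not called (-0.42 ± 0.41, adjusted p = 0.635).

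Elovl6 lay at 1440 and 544 CPM in young mice and 487 and 222 CPM in the aged libraries (-1.48 ± 0.61 SE, edgeR adjusted p = 0.262). The ages did not overlap, and young replicate 1 was the high library, unlike for Fasn. Scd1 lay at 47.9 and 777 CPM against 160 and 185 CPM (-1.26 ± 0.99, adjusted p = 0.543). Both aged values lay between the 2 young ones, which were 16.2-fold apart.

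Srebf1 lay at 52.7 and 230 CPM in young mice and 42.1 and 65.3 CPM in the aged libraries (-1.40 ± 0.63 SE, edgeR adjusted p = 0.294). Young replicate 2 alone was high. Mlxipl lay at 2506 and 1618 CPM against 924 and 997 CPM (-1.10 ± 0.50, adjusted p = 0.296), with both young libraries above both aged ones and young replicate 1 the highest.

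Thrsp lay at 220 and 1011 CPM against 272 and 85.6 CPM (-1.79 ± 0.79 SE, edgeR adjusted p = 0.289). Angptl8 lay at 14.4 and 192 CPM against 29.4 and 31.2 CPM (-1.77 ± 0.93, adjusted p = 0.356), a 13.3-fold gap between the young libraries against 1.06-fold between the aged ones. Pnpla3 lay at 0.162 and 4.85 CPM against 17.4 and 1.23 CPM, so that 1 aged library held the highest value and the lowest rested on 1 UMI (adjusted p = 0.516).

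**Figure D3:**
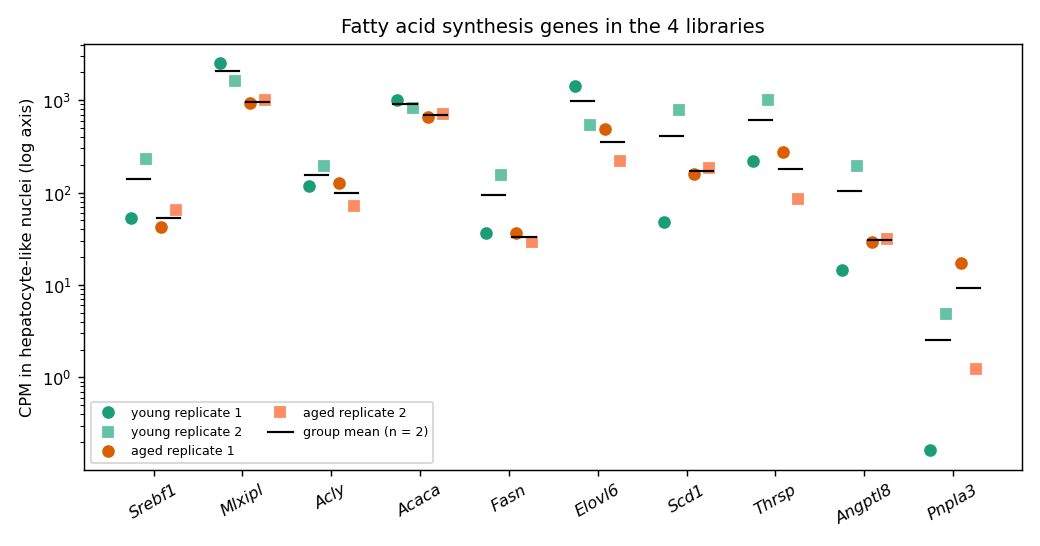
CPM in hepatocyte-like nuclei (log axis) of each gene in the 4 libraries, with black bars for the mean of the 2 libraries of an age. Young replicate 2 is the highest library for 6 genes, among them Scd1 at 777 CPM, and young replicate 1 for Elovl6, Mlxipl and Acaca.

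The gap between the libraries of 1 age followed the gene. Young replicate 2 was the highest library for 6 genes (Fasn, Thrsp, Srebf1, Angptl8, Acly and Scd1), young replicate 1 for 3 (Elovl6, Mlxipl and Acaca) and aged replicate 1 for Pnpla3. The median ratio between the young libraries was 4.30 for the 10 genes and 1.34 for 9018 genes of at least 10 CPM, and between the aged libraries 1.40 and 1.25. The age comparison therefore turned on which young library was used. Over the fits that left out 1 library, the log2 fold change ranged from -2.22 to -0.12 for Fasn and -2.83 to -0.29 for Thrsp. It ranged from -2.15 to -0.62 for Elovl6, -1.36 to -0.75 for Mlxipl, -1.12 to -0.25 for Acly and -0.53 to -0.27 for Acaca. Without young replicate 2 the log2 fold changes of Scd1, Angptl8 and Srebf1 turned to 1.87, 1.09 and 0.05. Without aged replicate 1 that of Pnpla3 was -1.05. In each of these fits a lone library was taken to vary like those of the other age, so counts of called genes are not given. Without the filter on low counts 6 of the 10 were called (Fasn, Srebf1, Thrsp, Elovl6 and Angptl8 lower, Pnpla3 higher), among 1450 genes in all. The number of genes tested in that fit is not given here, so nothing is read from this count.

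No gene of the 7 other lists was called by age (edgeR, 0 of 90 tested list genes; 15 or 16.7% had an unadjusted p under 0.05, against 18.2% of all genes, and DESeq2 called 5 or 5.56%, against 5.14% of all genes). Tkfc, the triokinase of fructose breakdown, had the smallest p, at 276 and 295 CPM in young mice and 93.5 and 62.1 CPM in the aged libraries (-1.88 ± 0.35 SE, edgeR adjusted p = 0.123). The young libraries lay 1.07-fold apart for Tkfc, and the ages did not overlap. Khk lay at 115 and 231 CPM against 78.6 and 72.2 CPM (-1.20 ± 0.39, adjusted p = 0.205), also without overlap.

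Among the enzymes the smallest p belonged to Slc25a1, the mitochondrial citrate carrier that feeds Acly, at 27.7 and 62.7 CPM in young mice and 12.97 and 16.3 CPM in the aged libraries (-1.63 ± 0.44 SE, edgeR adjusted p = 0.173). The acyltransferase gene Agpat2 and the elongase gene Elovl1 followed (36.5 against 18.1 CPM and 13.5 against 7.91 CPM as means, adjusted p = 0.245 and 0.323). In these 3 genes, chosen by their p by age, both aged libraries lay below both young ones. The same order was found in 10 of the 22 enzymes and in 25.3% of all genes. Of the 22 enzymes 16 had a lower mean in the aged libraries, with a median log2 fold change of -0.34.

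Among the regulators Ppargc1b lay at 86.0 and 115 CPM in young mice and 158 and 253 CPM in the aged libraries (1.03 ± 0.37 SE, edgeR adjusted p = 0.222). Nr1h3, which encodes LXR alpha, lay at 104 and 90.1 CPM against 55.9 and 55.6 CPM (-0.80 ± 0.29, adjusted p = 0.234), and Mlx, the partner of ChREBP, at 12.2 and 21.9 CPM against 8.03 and 9.68 CPM (-0.95 ± 0.41, adjusted p = 0.275). The ages did not overlap for any of the 3, which were chosen by their p by age. Of all 22 regulators, 3 had both aged libraries above and 6 below both young ones, and 51.1% of all genes had no overlap. Of the relatives, Hsd17b13 lay at 90.4 and 154 CPM against 230 and 274 CPM, Cidec, a lipid droplet fusion gene, at 21.4 and 68.8 CPM against 160 and 107 CPM, and Angptl4 at 95.2 and 63.2 CPM against 40.0 and 35.2 CPM (adjusted p = 0.224, 0.218 and 0.193). Lpcat3, an LXR target that remodels phospholipids, lay at 99.5 and 126 CPM against 230 and 258 CPM (1.11 ± 0.32, adjusted p = 0.184). The LXR targets Abca1 and Abcg8, next in order of p among those with at least 10 CPM, overlapped between the ages (adjusted p = 0.545 and 0.667). Abcg1, below that level and named after its values were seen, lay at 1.95 and 2.52 CPM against 1.03 and 0.586 CPM (edgeR adjusted p = 0.274), without overlap.

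The share of hepatocyte-like nuclei with at least 1 UMI was compared after thinning each nucleus to 1000 UMIs, which left 1280, 3748, 3953 and 7070 nuclei. With 2 libraries against 2 the smallest p an exact permutation test can give is 0.333. For Elovl6 the shares were 65.3% and 40.0% in young mice and 34.1% and 18.7% in the aged libraries (exact two-sided permutation p = 0.333), and in T/NK-like nuclei, which should lack the gene, they were 50% (8 of 16, exact 95% binomial interval 24.7% to 75.3%), 39.4%, 28.3% and 15.7%. For Mlxipl they were 89.4% and 79.8% against 58.4% and 61.8% (exact permutation p = 0.333), with 62.5%, 70.4%, 49.1% and 44.6% in T/NK-like nuclei. The T/NK-like shares of Elovl6 and Mlxipl were thus also higher in both young libraries, and the part of free hepatocyte RNA in these shares was not tested. For Fasn the shares were 3.91%, 13.4%, 3.59% and 3.27%, and in T/NK-like nuclei 12.5% (2 of 16, interval 1.55% to 38.3%), 14.1%, 3.77% and 0.602%. The T/NK-like shares of Fasn rested on 2, 10, 2 and 1 nuclei, and the hepatocyte share was at or below them in 3 of 4 libraries, so no reading is taken from the shares for this gene. Median depths before thinning were 3581, 924, 2121 and 2969 UMIs in hepatocyte-like and 1715, 1151, 1282 and 1095 UMIs in T/NK-like nuclei. For Scd1 the unthinned mean shares were 34.9% and 37.0%, and the thinned ones 24.7% and 16.2%, so the order of the ages turned with thinning.

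In the other classes the genes were read against free hepatocyte RNA. The summed level of 12 hepatocyte transcripts was 70.0% to 84.7% of its hepatocyte level in endothelial-like nuclei, 65.8% to 86.7% in macrophage-like, 73.1% to 88.3% in T/NK-like and 35.7% to 68.5% in stellate/fibroblast-like nuclei. Acaca reached 72.6% to 113%, 74.9% to 104%, 67.9% to 102% and 34.8% to 49.0% of its hepatocyte level in these 4 classes, and Thrsp 79.0% to 89.9%, 60.3% to 86.0%, 62.7% to 119% and 19.4% to 43.7%. These ranges overlap those of the hepatocyte transcripts in each class. Relative to those transcripts Acly was higher than in hepatocyte-like nuclei in 4 of 4 libraries of endothelial-like, macrophage-like and T/NK-like nuclei, by 1.05 to 1.91, 1.01 to 1.38 and 1.32 to 1.81 times. The same held in 4 of 4 libraries for Acaca in endothelial-like (1.01 to 1.33 times), Scd1 in macrophage-like (1.09 to 1.79 times) and Srebf1 in T/NK-like nuclei (1.18 to 1.43 times). Pnpla3 had between 2 and 44 UMIs in all libraries of a class together, too few to place.

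Scd1, Mlxipl and Elovl6 stood on 1 side of the hepatocyte transcripts in 4 of 4 libraries in stellate/fibroblast-like nuclei, the retinoid-storing cells and fibroblasts of the liver. Scd1 lay there at 102, 1019, 231 and 380 unscaled CPM in young replicates 1 and 2 and aged replicates 1 and 2, from 23, 440, 90 and 544 UMIs. This was 231%, 119%, 148% and 204% of its hepatocyte level, while the hepatocyte transcripts stood at 40.0%, 68.5%, 35.7% and 47.2%. Relative to those transcripts Scd1 was 1.74 to 5.78 times as high as in hepatocyte-like nuclei, above 1 in 4 of 4 libraries. Mlxipl stood at 11.4% to 24.1% and Elovl6 at 11.4% to 32.6% of the hepatocyte level, below the hepatocyte transcripts in 4 of 4 libraries (0.319 to 0.443 and 0.318 to 0.691 relative to them). Classes come from clusters of the same nuclei, so these are levels and not tests.

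**Figure D4:**
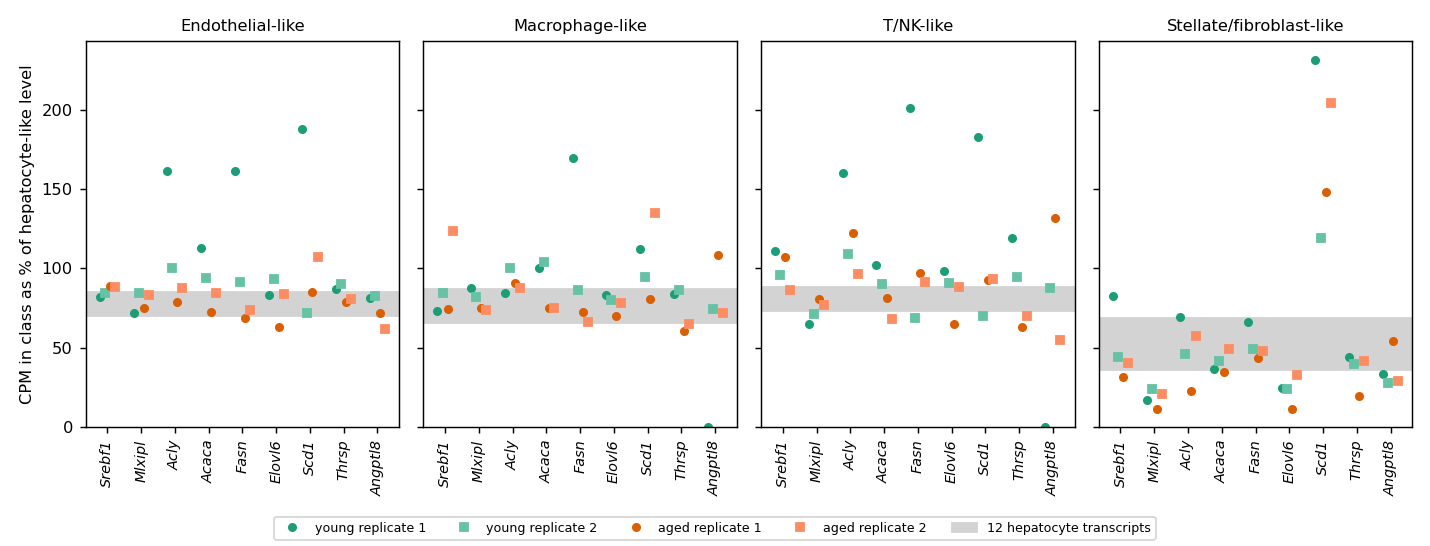
Level of 9 of the genes in 4 other classes as a percentage of the hepatocyte-like level of the same library (vertical axis), with grey bands for the range of the 12 hepatocyte transcripts. In stellate/fibroblast-like nuclei Scd1 lies at 119% to 231%, above the band, and Mlxipl at 11.4% to 24.1%, below it.

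Ages were compared in the same 4 classes. In endothelial-like nuclei all 10 genes passed the filter on low counts, in macrophage-like 9, in T/NK-like 8 and in stellate/fibroblast-like 7, and none was called in any of them (edgeR, 0.0186%, 0.0198%, 0% and 0% of all genes called in that order, with 0.0099% in each direction in macrophage-like nuclei). At an unadjusted p under 0.05 there were 7 of 10, 5 of 9, 6 of 8 and 5 of 7, where 13.3%, 14.7%, 12.2% and 12.2% of all genes had one. DESeq2 called 2, 1, 0 and 1 of them, and 0.727%, 0.555%, 0.233% and 0.368% of all genes. A gene that passed the filter only through the libraries where it was high had to differ, and free hepatocyte RNA was present in each class, so nothing is read from these counts. The smallest adjusted p was 0.178, for Fasn in macrophage-like nuclei at 59.8 and 146 CPM in young mice and 26.6 and 19.8 CPM in the aged libraries. The hepatocyte transcripts there stood at 82.9% and 86.7% of their hepatocyte level in young mice and 65.8% and 75.2% in the aged libraries, and their part in these values was not tested.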

How the data were processed

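The authors deposited UMI counts per gene and barcode for each library, made with Cell Ranger 7.1.0 on mm10, per the submitters' processing notes. How strand and introns were handled was not stated there. Nuclei with at least 500 UMIs, 300 genes and at most 5% mitochondrial UMIs were kept, doublets were removed by Scrublet score (0.8% per 1000 barcodes), and clusters (scanpy 1.11.5, Leiden, with the 10 genes and the lists left out) were named from fixed markers. A name other than hepatocyte-like needed a mean marker log2 fold of 2, a rule set after the clusters were seen. A cluster was called hepatocyte-like where every other class stayed below 1 and the hepatocyte markers were at or above -1. This left 9.41%, 7.53%, 1.93% and 1.84% of nuclei unnamed. Counts were summed per library and class or zone part and tested with edgeR 4.0.16 (filterByExpr, TMM, quasi-likelihood F test, Benjamini-Hochberg over all genes, threshold 0.05, 2 against 2 libraries). CPM are per 1000000 TMM-scaled counts, and unscaled CPM are per plain total. The landmarks left the zone test. Shares have exact binomial errors that cover counting only. Hepatocyte-like sums held 6661811, 9740042, 17035375 and 32322634 UMIs. The fits were run on data simulated with the same dispersion for every gene, not estimated from these libraries. That run cannot show how the age test behaves with young libraries this far apart. Within a group the 2 libraries were distinct (chi-square over degrees of freedom of 67.3 and 124). Alternatives were RLE scaling, no filter on low counts, DESeq2 1.42.0, UMI, mitochondrial and doublet limits, equal nuclei, other zone parts and landmarks, a replicate block and leaving out each library. The members, lists and rules were chosen with earlier results of these data known. All 10 members are named, and of each list the 3 genes of at least 10 CPM with the smallest p by age and by zone. Some genes that this rule selects are not reported here.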

Additional observations from a re-analysis of the deposited data

How the results depend on the processing

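Of the zone results, 8 members were called in every fit that left out 1 library and 6 to 10 under the other settings. The members differed: without aged replicate 1, Pnpla3 was not tested and Mlxipl was called, in the opposite direction. Mlxipl was also called in that direction under 7 of the 11 other settings and is part of those counts. The share of all genes called under each setting is not given beside these counts. The log2 zone changes of Acly, Acaca, Fasn, Srebf1, Thrsp and Elovl6 stayed past the threshold under all 11 other settings and all 4 fits without a library. Leaving out 1 library gave 1733 to 2500 genes called by zone, the fewest without aged replicate 2. The age results depended on the settings. Without the filter on low counts, 6 members, 1450 genes and 7 list genes were called by age, with 1 member by the zone by age term (Acaca) and 5, 7, 4 and 3 members in endothelial-like, macrophage-like, stellate/fibroblast-like and T/NK-like nuclei. The shares of all genes called in these unfiltered fits are not given here, so nothing is read from the member counts. DESeq2 called 788 genes and 5 list genes by age, with 2, 1 and 1 members in the first 3 of these classes. Genes called by age numbered 2 without the mitochondria-rich clusters (a setting chosen after seeing the data) and 2 with at most 1% mitochondrial UMIs. Leaving out 1 library gave 0 to 5 members, 213 to 1356 genes and 2 to 9 list genes called by age, and 0 to 4, 1 to 4, 0 to 4 and 0 to 5 members in the 4 classes. The log2 age changes then ranged from -2.16 to 1.87 for Scd1, -2.09 to 0.0498 for Srebf1, -2.66 to 1.09 for Angptl8, -1.05 to 5.78 for Pnpla3, -1.08 to 0.15 for Abca1, -0.0772 to 1.23 for Abcg8 and -5.19 to 0.94 for Igfbp1. The zone by age terms ranged from -0.69 to 0.14 for Fasn, -0.66 to 0.0614 for Acly, -0.56 to 0.0213 for Scd1, -0.25 to 0.13 for Mlxipl, -0.0021 to 0.18 for Elovl6 and -0.80 to 0.42 for Angptl8, and that of Scd1 was 0.30 without the mitochondria-rich clusters. The unthinned share of nuclei with a Scd1 UMI was 2.11 percentage points higher in the aged libraries, against 8.50 lower after thinning. The cause of these shifts was not tested.

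Same-numbered libraries are not stated to be paired, and their deviations had a correlation of -0.21. With the replicate block 0 members, 28 genes and 0 list genes were called by age, and no member in any class, while the zone fits have the library as a block already. With the numbers crossed (added after seeing the data) 0 members and 12 genes were called. Depth limited Pnpla3, which rested on 1 to 289 UMIs per library.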

Other observations

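The profile of the members over the 12 sums of 4 libraries and 3 zone parts was compared with 8087 genes of at least 10 CPM. The closest were Cfb, Vtn, Ptma, Pdgfrl and C1qbp (Pearson r = 0.983, 0.977, 0.976, 0.975 and 0.971 with the mean profile of the members, over 12 sums that share libraries and depth). Cfb, a complement protease gene, lay at 131 and 265 CPM in young mice and 156 and 118 CPM in the aged libraries, highest in young replicate 2. Vtn, which encodes vitronectin, lay at 134 and 319 CPM against 181 and 137 CPM. Each member was compared with the mean profile of the other members instead. Fasn (0.971) and Thrsp (0.910) were closest to that mean, and Elovl6 (0.034) and Mlxipl (0.017) were far from it.

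Some genes of the fasting response and of the clock also differed along the lobule. Of 9 tested fasting genes, 4 were called higher periportal and 1 higher pericentral, against 10.7% and 10.8% of all genes. The gluconeogenic genes Pck1 and G6pc lay at 1515 against 842 CPM and 436 against 286 CPM as means over libraries (log2 fold changes -1.11 ± 0.19 and -0.84 ± 0.11 SE, edgeR adjusted p = 0.00232 and 0.000428), and their coactivator gene Ppargc1a at 156 against 68.0 CPM (-1.15 ± 0.15, adjusted p = 0.000438). Each was higher periportal in 4 of 4 libraries, as were Acly, Acaca and Fasn. Of 12 tested clock genes, 4 were called higher periportal and 1 higher pericentral, against the same 10.7% and 10.8%. Per2 and Cry1 lay at 79.8 against 57.7 CPM and 13.8 against 9.14 CPM (edgeR adjusted p = 0.00375 and 0.0105).

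By age, Tat, an enzyme of tyrosine breakdown induced in fasting, lay at 1836 and 781 CPM in young mice and 133 and 262 CPM in the aged libraries (log2 fold change -2.73 ± 0.60 SE, edgeR adjusted p = 0.146). G6pc was likewise higher in both young libraries (-3.21 ± 0.79, adjusted p = 0.164), and Igfbp1 was high only in young replicate 1 (adjusted p = 0.222). Cry1 lay at 10.9 and 18.4 CPM against 7.48 and 6.23 CPM (adjusted p = 0.238), and Clock and Per3 were not called (adjusted p = 0.333 and 0.455).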
